A study of Mus musculus with 24 samples.

Results

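Livers labelled as lacking the transcription factor FoxO1, from mice fed a regular diet, were set against livers of floxed mice on the same diet, over all genes of the deposited table. The members are 6 of the 24 libraries, taken by their sample titles: 3 RD LFKO libraries, with the genotype FoxO1-/- in the labels, and 3 RD WT libraries, with the genotype FoxO1lox/lox; PPARαlox/lox. Knockouts were made by crossing floxed mice with Albumin-Cre mice, a transgene active in hepatocytes. Whether other liver cells keep FoxO1 cannot be read from whole liver. The WT mice carry loxP sites at both genes, no Cre is stated for them, and the labels do not say whether the LFKO mice carry floxed PPARα alleles. All mice were fasted for 4 h, and RD stands for 3 weeks on the regular diet. For comparison, 6 libraries from mice given a high-fat diet (HFD LFKO and HFD WT, same genotypes) and 6 from RD mice labelled FoxO1-/-; PPARα-/- (LFPKO) or PPARα-/- (LPKO) were used. They share no library with the RD LFKO and RD WT groups. The sex and age of the mice, and whether each replicate is a separate mouse, are not given in the labels used here, so p-values measure only the spread between these samples.

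FoxO1 is a transcription factor that insulin switches off: phosphorylation by Akt moves it out of the nucleus. In the fasted liver it is known to switch on genes of glucose release, such as G6pc and Pck1, and genes that feed back on insulin and growth signalling, such as Irs2 and Igfbp1. Liver also differs strongly between male and female mice, through the rhythm of growth hormone release, which acts on STAT5 and sets the level of many P450, sulfotransferase and urinary protein genes.

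The deposited values are TPM for each gene, its length-corrected share of all transcripts in a library. Sequencing depth is not kept in TPM and is unknown. In the 3 RD LFKO libraries 10488 to 10650 genes reached 1 TPM, against 10285 to 10937 in the 3 RD WT libraries. The correlation across genes of log2(TPM + 1) was 0.989 to 0.991 among LFKO libraries and 0.981 to 0.989 among WT libraries, and it was lowest for pairs with WT replicate 1. The Y-linked genes Ddx3y, Eif2s3y, Kdm5d and Uty were present in all 6 libraries, for Ddx3y at 18.3 to 20.5 TPM in LFKO and 15.4 to 21.5 TPM in WT livers. Hepatocyte markers summed to 112375 to 121686 TPM in LFKO and 91951 to 93172 TPM in WT livers, and Alb alone stood at 64467, 67025 and 65337 TPM in LFKO livers against 44494, 44775 and 47067 TPM in WT livers (limma adjusted p = 0.197). TPM are shares of a whole, and changes below are log2 fold changes (log2FC, LFKO minus WT, with SE). Each SE rests on 1 estimate of spread per gene, shared by all 8 groups. The scale is log2(TPM + 1), and it understates changes of weakly expressed genes.

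Foxo1 transcripts were nearly gone from the LFKO livers. Foxo1 (GENCODE M21 on GRCm38: plus strand of chromosome 3, from 52268336 to 52353221) stood at 0.407, 0.308 and 0.484 TPM in the 3 LFKO libraries, against 4.54, 4.14 and 4.25 TPM in the 3 WT libraries. The groups lie far apart, and the call held under every alternative run (log2FC -1.92 ± 0.14, limma adjusted p = 6.88e-08). The other FoxO factors tested, Foxo3 and Foxo4, were not called: Foxo3 averaged 7.81 ± 0.471 TPM in LFKO and 8.07 ± 0.431 TPM in WT livers, and Foxo4 averaged 9.58 ± 0.209 TPM in LFKO and 9.23 ± 0.767 TPM in WT livers (SD, n = 3 each, limma adjusted p = 0.95 and 0.89). Bulk tissue cannot tell fewer cells of a type from less RNA per cell, so where the remaining Foxo1 transcripts come from was not tested.

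Of 10551 genes with a mean of at least 1 TPM over all 24 libraries, 176 (1.67%) were called changed by limma at an adjusted p under 0.05. In LFKO livers 113 (1.07%) rose and 63 (0.597%) fell. Among called genes with an established name, the largest increases were in P450 genes of the Cyp2 family, and the largest decreases in major urinary protein (Mup) genes; the predicted genes Gm14586 (8.01) and Gm14303 (5.45) also rose. Genes that rose did so by less: the median log2FC was 0.85 among those called higher and -1.37 among those called lower, 42 of the 113 exceeded 1, and 47 of the 63 were below -1. Without regard to the test, the 3 LFKO values lay above all 3 WT values for 2044 genes (19.4%) and below them for 784 (7.43%), and 174 of the 176 called genes were among these. The median log2FC over all tested genes was 0.03. The number of calls depends on the libraries. It was 94, 77 and 79 without LFKO replicate 1, 2 or 3, and 173, 105 and 81 without WT replicate 1, 2 or 3. Without WT replicate 1 the balance turned to 68 higher and 105 lower, and rescaling without Mup and mitochondrial transcripts gave 122 higher and 175 lower.

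**Figure D1:**
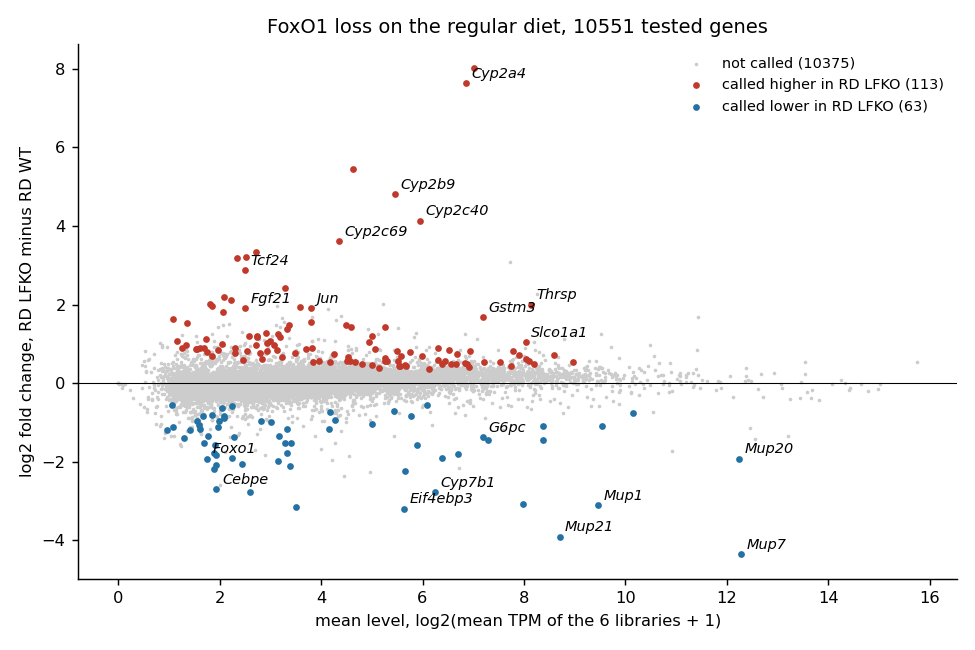
Log2 fold change (RD LFKO minus RD WT, on the log2(TPM + 1) scale) against the mean level of the 6 libraries for the 10551 tested genes. Red points are the 113 genes called higher and blue points the 63 called lower. Cyp2a4 (7.63) and Mup7 (-4.36) mark the upper and lower ends among genes with an established name.

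Genes of glucose release and genes described as direct FoxO targets are those FoxO1 is best known for. Among 16 tested genes of glucose release, 0 rose and 1 fell, with a median log2FC of -0.11, beside 1.67% called over all tested genes. G6pc, the last enzyme of glucose release, stood at 61.3, 75.3 and 109 TPM in LFKO and 237, 180.0 and 211 TPM in WT livers. The 2 sets do not overlap, and the change was -1.37 ± 0.35 with a limma adjusted p of 0.0494. That call was lost without any 1 of the 6 libraries, with adjusted p between 0.0569 and 0.181, and under 4 of 9 other settings. Pck1, which makes phosphoenolpyruvate for glucose synthesis, was at 628, 836 and 788 TPM in LFKO and 1612, 932 and 852 TPM in WT livers. Each LFKO value is below each WT value, closely so for WT replicates 2 and 3, and Pck1 was not called (-0.54 ± 0.30, limma adjusted p = 0.412). The 29 tested members of a list of described FoxO targets had 0 calls higher and 2 lower (G6pc and Eif4ebp3), with 14 values above 0 and a median of -0.02, beside 0.03 over all tested genes.

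The promoters of 3 of these genes are shown because they are textbook FoxO1 targets, of which G6pc was called and Igfbp1 and Pck1 were not. Each run is 250 bases before and 50 after the start, 5′ to 3′ on the plus strand of GRCm38.p6, from RefSeq, and capitals mark TGTTTTG or its reverse CAAAACA, an insulin response motif searched on both strands. The regions are chr11:7197537-7197836 for Igfbp1, chr11:101367466-101367765 for G6pc and chr2:173152823-173153122 for Pck1.
Igfbp1: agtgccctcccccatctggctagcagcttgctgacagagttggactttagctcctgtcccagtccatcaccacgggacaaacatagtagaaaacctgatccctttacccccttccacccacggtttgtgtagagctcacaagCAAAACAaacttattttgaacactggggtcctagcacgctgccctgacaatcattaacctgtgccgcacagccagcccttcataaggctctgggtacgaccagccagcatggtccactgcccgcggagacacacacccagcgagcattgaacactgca
G6pc: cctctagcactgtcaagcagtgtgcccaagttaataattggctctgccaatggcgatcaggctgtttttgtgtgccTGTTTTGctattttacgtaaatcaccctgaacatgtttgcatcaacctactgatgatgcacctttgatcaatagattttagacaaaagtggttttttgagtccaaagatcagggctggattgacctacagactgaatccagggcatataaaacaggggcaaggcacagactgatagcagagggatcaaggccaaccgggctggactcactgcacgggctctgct
Pck1: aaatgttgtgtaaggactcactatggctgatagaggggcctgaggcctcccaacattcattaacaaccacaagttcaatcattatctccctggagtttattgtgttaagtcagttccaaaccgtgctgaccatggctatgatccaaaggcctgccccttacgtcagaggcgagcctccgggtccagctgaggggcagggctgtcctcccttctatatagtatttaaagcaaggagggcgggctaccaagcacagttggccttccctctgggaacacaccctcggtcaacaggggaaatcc
The motif occurs once in the Igfbp1 window and once in the G6pc window, starting 108 and 174 bases before the start, and not in the Pck1 window. The forkhead core TGTTTAC, searched on both strands, is in none of these 3 windows. Over 27025 genes with a promoter in the RefSeq table, 7.2% hold TGTTTTG on either strand and 4.05% hold TGTTTAC, and over the 8255 tested genes among them the shares are 5.65% and 3.43%. Among called genes with a promoter there, TGTTTTG was in 4 of 42 that fell (Cyp2d9, G6pc, Mup7 and Nlrp12, named after their values were seen) and in 2 of 84 that rose, and TGTTTAC was in 1 of 42 and 4 of 84.

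Igfbp1, which encodes a secreted binding protein for insulin-like growth factors and holds that motif, did not separate the groups. It was at 45.2, 41.0 and 70.5 TPM in LFKO and 69.5, 60.4 and 66.7 TPM in WT livers (-0.36 ± 0.62, limma adjusted p = 0.836). LFKO replicate 3 lies above all WT libraries. Irs2, an adaptor that passes on the insulin signal, was at 3.74, 2.83 and 3.64 TPM in LFKO and 8.25, 6.07 and 6.42 TPM in WT livers. Each LFKO value is below each WT value, but the gene was not called (-0.84 ± 0.28, limma adjusted p = 0.137). Of 19 tested genes of insulin signalling 0 were called. Of 19 genes of glucose use 0 were called, as were 0 of 12 genes of glycogen handling.

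Eif4ebp3 was the other described FoxO target that fell. It encodes a repressor of cap-dependent translation, related to 4E-BP1. Its level was 9.85, 7.17 and 8.40 TPM in LFKO livers, against 121, 81.0 and 64.0 TPM in WT livers, so that WT levels were 10.4-fold higher on the mean. The groups are far apart (-3.20 ± 0.32, limma adjusted p = 6.41e-06), and the call held under every alternative run. Its relative Eif4ebp1 was not called (0.34, limma adjusted p = 0.257).

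**Figure D2:**
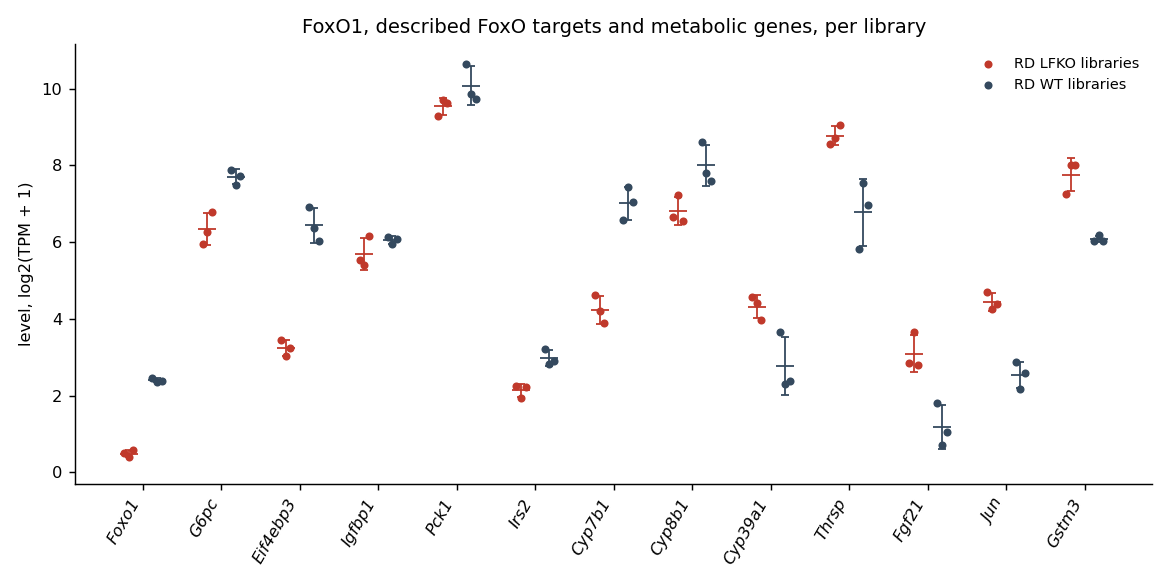
Levels of Foxo1 and 12 metabolic, transcription factor and detoxification genes in each of the 3 RD LFKO (red, left of each pair) and 3 RD WT libraries (dark, right), on the log2(TPM + 1) scale, with mean and SD. Foxo1, G6pc, Eif4ebp3 and Cyp7b1 are lower in every LFKO library than in every WT library, while the Igfbp1 values overlap.

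Of 22 listed genes that are more active in female than in male liver, 7 rose in LFKO livers, 4 were tested and not called, and 11 were below the filter of 1 TPM and not tested. Over all tested genes 1.07% rose. Several male-biased genes fell. Some of the 7 met the filter mainly through their level in LFKO livers, so the count describes these genes and not the list: Slc22a27 averaged 4.73 TPM in RD LFKO and 2.83 TPM in HFD LFKO livers, against 0.469 TPM in RD WT livers. Cyp2b9, a P450 gene of female liver (chromosome 7), stood at 122, 80.2 and 50.1 TPM in LFKO and 1.5, 1.36 and 2.85 TPM in WT livers. The lowest LFKO library exceeds the highest WT library many times over (4.82 ± 0.68, limma adjusted p = 0.000482). Cyp2b13, a related gene below the filter, reached at most 6.30 TPM in LFKO and 0.0142 TPM in WT livers.

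Cyp2a4, a steroid hydroxylase gene on the same chromosome, was at 233, 232 and 227 TPM in LFKO and 0.114, 0.198 and 0.202 TPM in WT livers (7.63 ± 1.17, limma adjusted p = 0.000925). Its close relative Cyp2a5, a coumarin hydroxylase, was at 1231, 1399.6 and 716 TPM in LFKO and 516, 569 and 613 TPM in WT livers and was not called (limma adjusted p = 0.201). Reads of such similar genes can be divided wrongly between them, so their sum is given as well. Cyp2a4 and Cyp2a5 together made 1464, 1631 and 943 TPM in LFKO livers, against 517, 569 and 613 TPM in WT livers, a ratio of means of 2.38.

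Cyp2c40 and Cyp2c69, P450 genes that lie next to each other on chromosome 19, moved together. Reads of related genes can be divided wrongly between them, so their sum is given as well. It was 203, 70.6 and 182 TPM in LFKO livers, against 1.94, 13.6 and 9.24 TPM in WT livers. Cyp2c40 was at 150.2, 54.7 and 141 TPM in LFKO and 1.45, 10.5 and 6.83 TPM in WT livers (4.13 ± 0.61, limma adjusted p = 0.000666). Cyp2c69 was at 53.1, 16 and 40.6 TPM in LFKO and 0.490, 3.07 and 2.41 TPM in WT livers (3.62 ± 0.36, limma adjusted p = 6.41e-06). Its SE is shared with the other groups, whose means were 0.0739 to 0.948 TPM, where log2(TPM + 1) compresses the spread. So the SE may understate the spread of the RD LFKO and RD WT libraries. In both genes LFKO replicate 2 is the lowest of its group and still above every WT library. The organic anion transporter genes Slc22a26 (2.19 ± 0.34) and Slc22a27 (1.98 ± 0.34) and the peroxisomal fatty acid transporter gene Abcd2 (1.95 ± 0.38) complete the 7. Abcd2 lost its call without LFKO replicate 2 (limma adjusted p = 0.0536). The 4 tested members that were not called were Cyp17a1 (1.08), Fmo2 (0.07), Cux2 (0.05) and Ntrk2 (-0.05).

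Of 14 tested male-biased genes outside the Mup family, 4 fell and 1 rose, with a median of -0.71, beside 0.597% and 1.07% over all tested genes. The log2FC was negative for 10 of the 14 and positive for 4. Cyp7b1, an oxysterol hydroxylase of bile acid and steroid metabolism, was at 23.6, 17.4 and 13.9 TPM in LFKO and 93.8, 173 and 130.3 TPM in WT livers (-2.78 ± 0.51, limma adjusted p = 0.00516). Elovl3, which lengthens very long fatty acids, averaged 44.1 ± 2.83 TPM in LFKO and 163 ± 59.9 TPM in WT livers, and the P450 gene Cyp2d9 averaged 478 ± 53.0 TPM in LFKO and 1010.4 ± 41.3 TPM in WT livers (SD, n = 3 each; limma adjusted p = 0.00408 and 0.000861). The complement gene C6 fell by 1.91 on the log2 scale; this call was lost without LFKO replicate 1 or WT replicate 2 or 3 (limma adjusted p up to 0.0672). Cyp4a12b, a fatty acid hydroxylase gene, was at 16.1, 23.5 and 31.0 TPM in LFKO and 51.7, 57.7 and 72.3 TPM in WT livers without being called. Against the direction of the list, Slco1a1, an organic anion transporter, rose: 408, 359 and 288 TPM in LFKO, against 140.4, 192 and 179 TPM in WT livers (1.04 ± 0.19, limma adjusted p = 0.00476).

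Mup genes, which encode pheromone-binding proteins that the liver secretes for excretion in urine, are a cluster of near-identical genes on chromosome 4. Of 20 tested Mup genes 5 fell and 0 rose, with a median of -0.53, beside 0.597% and 1.07% over all tested genes. The log2FC was negative for 15 of them and positive for 5, up to 1.30. In every LFKO library 9 were lower than in every WT library, and 1 was higher. The shares over all tested genes were 7.43% lower and 19.4% higher. Mup7 was at 545, 309 and 536 TPM in LFKO and 6465, 11850.2 and 10299 TPM in WT livers (-4.36 ± 0.79, limma adjusted p = 0.00471). Mup21 was at 34.6, 46.5 and 75.5 TPM in LFKO and 619, 1053 and 663 TPM in WT livers (-3.90 ± 0.44, limma adjusted p = 3.2e-05). Mup1 and Mup12 were steady within groups and apart between them: Mup1 averaged 148 ± 31.8 TPM in LFKO and 1259.7 ± 31.7 TPM in WT livers (SD, n = 3 each), and Mup12 fell by 3.08 on the log2 scale. Mup20, the male pheromone darcin, averaged 2024 ± 559.6 TPM in LFKO and 7676 ± 1898 TPM in WT livers, and lost its call without LFKO replicate 1 or 3 or WT replicate 3 (limma adjusted p up to 0.077). The division of reads within the family is uncertain, but its sum was also lower, at 68242, 50223 and 59644 TPM in LFKO and 115807, 79232 and 85302 TPM in WT livers.

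**Figure D3:**
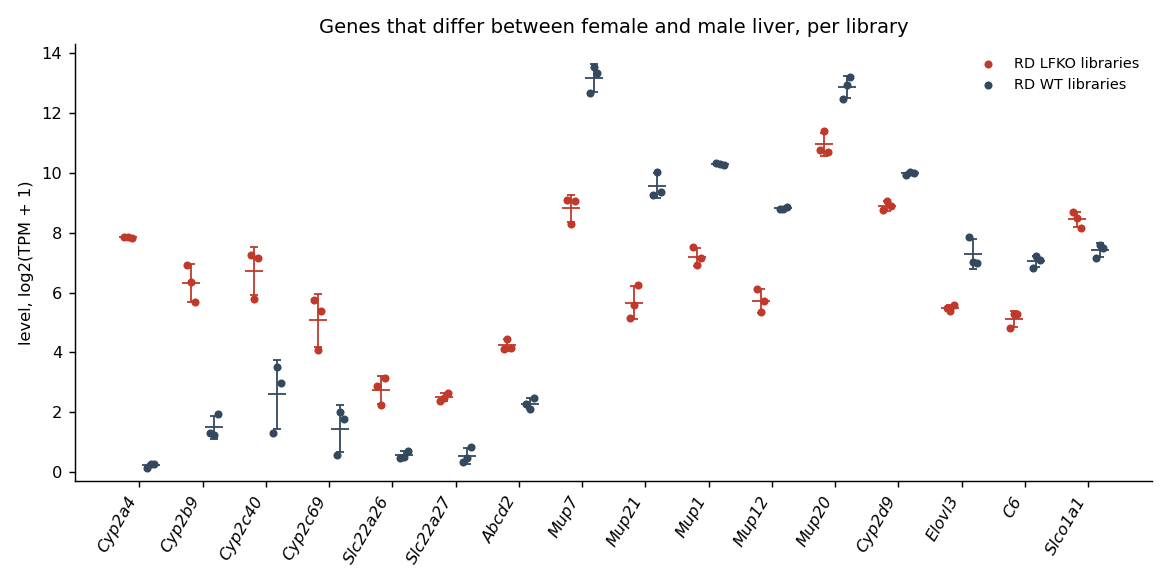
Levels of 7 female-biased genes (Cyp2a4 to Abcd2), 5 Mup genes and 4 other male-biased genes in each of the 3 RD LFKO (red, left of each pair) and 3 RD WT libraries (dark, right), on the log2(TPM + 1) scale, with mean and SD. The 7 female-biased genes are higher and, apart from Slco1a1, the male-biased genes are lower in every LFKO library than in every WT library.

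Genes of the growth hormone path itself did not pass the test. Of 18 tested members 0 were called, with a median of 0.03 (-0.10 after rescaling without Mup and mitochondrial transcripts). Cish and Socs2, inhibitors that STAT5 switches on, were at 4.79, 4.83 and 12.1 TPM and at 5.92, 9.07 and 11.4 TPM in LFKO livers, against 12.5, 19.8 and 14.5 TPM and 17.7, 16.6 and 16.3 TPM in WT livers. Each is lower in all LFKO libraries than in all WT libraries, with limma adjusted p of 0.43 and 0.349. Igf1, the growth factor that the liver secretes under growth hormone, was not called (0.20 ± 0.11, limma adjusted p = 0.404).

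Lipid genes are given beside the shares over all tested genes, of which 1.07% rose, 0.597% fell and 56.2% had a positive log2FC. Of 18 tested genes of fatty acid synthesis 16 had a positive log2FC, with a median of 0.33, and 1 was called. This was Thrsp, a lipogenic regulator, at 376, 422 and 529.7 TPM in LFKO and 55.4, 186 and 124 TPM in WT livers (2.0 ± 0.45, limma adjusted p = 0.0278). Its call was lost without any library other than WT replicate 2 (limma adjusted p up to 0.124). Mitochondrial fatty acid oxidation and ketogenesis had 17 of 19 values above 0 (median 0.27) and 0 calls, and cholesterol synthesis and handling had 22 of 24 above 0 (median 0.27) and 0 calls higher. The 1 cholesterol gene that fell was Scarb1, the HDL receptor, at 52.6, 56.6 and 53.0 TPM in LFKO and 83.9, 77.0 and 80.1 TPM in WT livers (-0.56 ± 0.11, limma adjusted p = 0.0106; 0.0534 and 0.056 without LFKO replicate 1 or 3). The medians over all tested genes were 0.03 as deposited and -0.08 after rescaling without Mup and mitochondrial transcripts, under which these 3 list medians were 0.22, 0.14 and 0.15 with 16, 13 and 18 values above 0.

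Among 22 genes of peroxisomal and microsomal fatty acid oxidation 2 rose and 1 fell, beside 1.07% and 0.597% over all tested genes. Abcd2 stood at 16.3, 21.1 and 16.6 TPM in LFKO and 3.90, 3.36 and 4.52 TPM in WT livers, and its partner Abcd3 rose by 0.57 ± 0.12, a call lost without LFKO replicate 1 or 3 or WT replicate 3 (limma adjusted p up to 0.0811). Cyp4a32, a fatty acid omega-hydroxylase gene, fell by 1.05 on the log2 scale; it lost the call without LFKO replicate 1 or 2 or WT replicate 2 or 3 (limma adjusted p up to 0.137). Of 18 other genes described as PPARα targets 1 was called, beside 1.67% of all tested genes. Fgf21, a fasting hormone, was at 6.15, 11.6 and 5.93 TPM in LFKO and 2.51, 0.628 and 1.06 TPM in WT livers (1.91 ± 0.25, limma adjusted p = 0.000163).

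Shares over all tested genes were 1.07% called higher and 0.597% called lower. Bile acid synthesis was split. Of 11 genes 1 fell (Cyp7b1) and 1 rose: Cyp39a1, an oxysterol 7α-hydroxylase, at 22.7, 20.3 and 14.7 TPM in LFKO and 11.6, 3.90 and 4.18 TPM in WT livers (1.55 ± 0.35, limma adjusted p = 0.0281). The Cyp39a1 call was lost without LFKO replicate 1 or 2 or WT replicate 2 or 3 (limma adjusted p up to 0.14). Cyp8b1, the sterol 12α-hydroxylase that makes cholic acid and is a described FoxO1-dependent gene, was at 100.4, 149 and 92.3 TPM in LFKO and 389.7, 224 and 193 TPM in WT livers. It is lower in every LFKO library and was not called (-1.19 ± 0.36, limma adjusted p = 0.099). Cyp8b1 was called lower in HFD LFKO against HFD WT (-1.42, limma adjusted p = 0.0163) and in LFPKO against LPKO (-2.32, limma adjusted p = 0.00428). The 1 call among 13 tested genes of bile acid transport and control was Slco1a1, which rose (1.04 ± 0.19). Slc10a2, a bile acid uptake transporter outside that list, also rose (1.26 ± 0.27, limma adjusted p = 0.0199). The Slc10a2 call was lost without LFKO replicate 2 or 3 or WT replicate 1 or 3 (limma adjusted p up to 0.123).

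Other called genes fall into small groups. Over all tested genes 1.07% rose, 0.597% fell and 56.2% had a positive log2FC. In the xenobiotic P450 list 2 of 25 rose and 1 fell: Cyp2c55 (1.37 ± 0.21), Cyp2a22 (2.43 ± 0.61) and Cyp2c37 (-1.44 ± 0.33). Cyp2a22 lost its call without any 1 library (limma adjusted p 0.0915 to 0.169), and Cyp2c37 without any but LFKO replicate 1 (up to 0.172). Cyp3a11, the major drug-metabolising P450, was at 3108, 4947 and 3776 TPM in LFKO and 3338, 694 and 765 TPM in WT livers, where WT replicate 1 overlaps the LFKO group (limma adjusted p = 0.107). Gstm3, a glutathione transferase, was at 153, 257 and 258 TPM in LFKO and 64.4, 71.6 and 64.7 TPM in WT livers (1.68 ± 0.31, limma adjusted p = 0.00476), and 7 of 7 Gstm genes had positive values (6 of 7 after rescaling without Mup and mitochondrial transcripts).

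Jun, an immediate early transcription factor gene, stood at 25.1, 18 and 20.1 TPM in LFKO and 6.29, 3.53 and 4.98 TPM in WT livers (1.91 ± 0.34, limma adjusted p = 0.00414). It was the 1 call among 11 immediate early genes, of which 9 were higher in every LFKO than in every WT library (median 0.64), as were 19.4% of all tested genes. Among 20 interferon response genes 2 rose: Isg15, a ubiquitin-like protein gene (0.98 ± 0.19, limma adjusted p = 0.00853; 0.0545 without LFKO replicate 3), and Zbp1, a nucleic acid sensor gene (0.89 ± 0.22, limma adjusted p = 0.0494; lost without any library other than LFKO replicate 1, up to 0.25). Of 18 genes of the integrated stress and unfolded protein response 0 were called. The shares over all tested genes were 1.67% called and 1.07% called higher.

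Tcf24, a basic helix-loop-helix factor gene, had the smallest adjusted p of the genes that rose and carry an established name. It was at 7.91, 8.45 and 10.5 TPM in LFKO and 0.909, 0.225 and 0.0464 TPM in WT livers (2.88 ± 0.21, limma adjusted p = 6.65e-08). Falls outside the lists included Errfi1, an inhibitor of the EGF receptor, at 200.3, 119 and 223 TPM in LFKO and 454, 522 and 465 TPM in WT livers (-1.45 ± 0.23, limma adjusted p = 0.00133). Nox4, an NADPH oxidase gene, was at 11.8, 9.05 and 9.11 TPM in LFKO and 20.4, 23.4 and 26.6 TPM in WT livers (-1.16 ± 0.14, limma adjusted p = 7.77e-05). Nat8 (-2.11 ± 0.30), Susd4 (-1.77 ± 0.22), Cnmd (-2.07 ± 0.28) and Gpcpd1 (-1.57 ± 0.27) fell under every alternative run. Slc15a5 (-2.77 ± 0.61), Erdr1 (-3.16 ± 0.70) and the pseudogene Gtpbp4-ps1 (-2.20 ± 0.52) also fell, with calls lost without at least 4 of the 6 libraries (Erdr1 without LFKO replicate 2 or 3 or WT replicate 2 or 3; Slc15a5 without any but WT replicate 1; Gtpbp4-ps1 without any but WT replicate 1).

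A few called genes were listed at 0 in all 3 libraries of 1 group. Cebpe, a transcription factor gene best known from granulocytes, was at 0 in the 3 LFKO libraries and 4.35 to 7.91 TPM in the 3 WT libraries. On the high-fat diet it was at 2.83 to 3.44 TPM in LFKO livers, so its absence did not hold across both sets of LFKO livers. The predicted genes Gm8116, Gm14303, Gm14586 and Gm34303, named after their values were seen, were at 0 in the 3 RD WT libraries. For Gm14303 and Gm14586 this did not hold in other libraries that keep FoxO1. They averaged 49.1 and 75.4 TPM in HFD WT livers and reached 86.1 and 114 TPM among all libraries that keep FoxO1. Gm8116, a processed pseudogene on chromosome 9 in GENCODE M21, was at 7.92 to 8.94 TPM in all 6 LFKO libraries of both diets and at 0 in the other 18, LFPKO included. An exact 0 in an estimated table can also be a failed estimate, and pseudogenes share sequence with their parent genes.

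Markers of other liver cells gave 1 call. Over all tested genes 0.597% fell, and 4622 of 10551 had a negative log2FC. Of 14 Kupffer cell markers 13 had a negative log2FC (median -0.34), and Marco, a scavenger receptor gene, was called lower: 0.773, 0.757 and 1.06 TPM in LFKO, against 2.60, 8.27 and 9.07 TPM in WT livers (-1.90 ± 0.45, limma adjusted p = 0.0352). Without any library other than WT replicate 1 that call was lost (limma adjusted p up to 0.163). The summed Kupffer markers overlapped between groups, at 224 to 284 TPM in LFKO and 216 to 346 TPM in WT livers. Endothelial markers summed to 74.0 to 93.6 TPM in LFKO and 83.2 to 110.5 TPM in WT livers, and stellate cell markers to 195 to 253 TPM in LFKO and 212 to 311 TPM in WT livers. The part of these cells in the other calls was not tested. Transcripts of the mitochondrial genome took 18.1% to 19.5% of TPM in LFKO and 19.6% to 22.3% in WT livers, with 0 of 13 genes called.

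**Figure D4:**
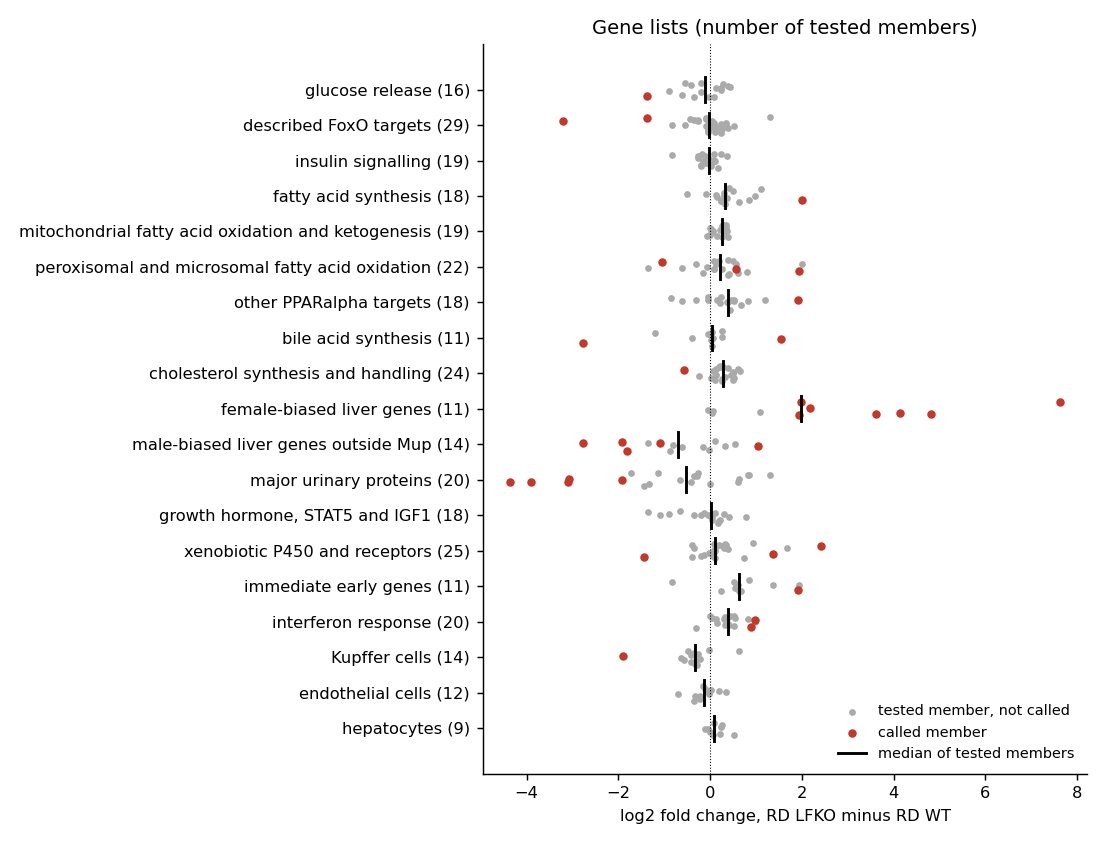
Log2 fold change (RD LFKO minus RD WT) of each tested member of 19 gene lists, with the number of tested members in brackets. Red points passed limma at an adjusted p under 0.05 and black bars are medians of the tested members, among them -0.71 for male-biased genes outside Mup. The female-biased points are only those of 22 listed genes that met the filter, some of them through LFKO livers.

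FoxO1 loss was measured again in 2 comparisons with other libraries, and the signs and calls of the 176 genes there are given beside the medians over all tested genes, 0.21 on the high-fat diet and -0.03 in LFPKO against LPKO. On the high-fat diet, LFKO against WT gave 1420 calls (13.5%), 1343 higher (12.7%) and 77 lower (0.73%). Of the 113 genes that rose on the regular diet, 103 were positive on the high-fat diet and 65 were called higher, 57.5% of the 113 and 4.84% of the 1343. Of the 63 that fell, 49 were negative and 25 were called lower, 39.7% of the 63 and 32.5% of the 77. In the libraries labelled LFPKO against LPKO, 13 genes were called (0.123%). There 84 of the 113 and 48 of the 63 kept their sign, but 2 and 5 were called, and the median log2FC was 0.10 over the 113 and -0.26 over the 63. Ppara transcripts were at 59.2 to 74.1 TPM in the RD LFPKO and LPKO libraries and 48.4 to 61.4 TPM in the RD LFKO and WT libraries, so the gene-level TPM does not check the PPARα labels.

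Foxo1, Eif4ebp3, Tbc1d30, Slc10a2 and the predicted gene Gm34303 were called in the same direction in all 3 comparisons. The high-fat diet libraries labelled LFPKO and LPKO were not compared by limma. In them Slc10a2 (6.93 to 9.31 TPM in LFPKO, 5.34 to 12.9 TPM in LPKO) and Tbc1d30 (2.78 to 6.37 and 4.71 to 6.51 TPM) overlapped. Eif4ebp3 did not (64.9 to 124 and 241 to 421 TPM), nor did Foxo1 (0.250 to 0.346 and 5.53 to 9.94 TPM). Tbc1d30, a gene for a Rab GTPase-activating protein, was at 1.61, 1.69 and 1.49 TPM in RD LFKO and 2.77, 4.20 and 3.79 TPM in RD WT livers (-0.81 ± 0.19, limma adjusted p = 0.0352). It fell by 1.31 on the high-fat diet and by 1.65 in LFPKO against LPKO (limma adjusted p = 0.000463 and 0.000169). Slc10a2, known as the bile acid transporter of ileum and bile duct cells, was at 9.08, 10.9 and 14.5 TPM in RD LFKO and 2.45, 5.99 and 4.62 TPM in RD WT livers (1.26 ± 0.27, limma adjusted p = 0.0199). Its log2FC was 1.62 on the high-fat diet and 1.49 in LFPKO against LPKO (limma adjusted p = 0.00179 and 0.0258). Summed cholangiocyte markers, at 52.5 to 94.4 TPM in RD LFKO and 37.2 to 80.1 TPM in RD WT livers, overlapped, and their part in the Slc10a2 value was not tested. On the regular diet Tbc1d30 lost its call without any library other than WT replicate 1 (limma adjusted p up to 0.139), and Slc10a2 without LFKO replicate 2 or 3 or WT replicate 1 or 3 (up to 0.123).

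Gm34303 was at 0 in all 12 libraries that keep FoxO1 and at 1.03 to 5.96 TPM in the 12 labelled FoxO1-/-. Eif4ebp3 averaged 38.7 ± 9.61 TPM in RD LFPKO and 168 ± 77.9 TPM in RD LPKO livers, and 66.8 ± 16.4 TPM in HFD LFKO and 186 ± 58.5 TPM in HFD WT livers (SD, n = 3 each; limma adjusted p = 0.00466 and 0.00905). Fmn2, a formin gene of the actin cytoskeleton, fell by 1.84 in both regular-diet comparisons (limma adjusted p = 0.00299 and 0.0142) and was not called on the high-fat diet (0.247). G6pc was called lower on the high-fat diet (-1.67, limma adjusted p = 0.00613), as was Igfbp1 (-1.98, limma adjusted p = 0.0391), and neither was called in LFPKO against LPKO.

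Whether the effect of FoxO1 loss depends on the PPARα genotype was tested directly, as the LFPKO against LPKO change minus the LFKO against WT change. This term was called for 27 of 10551 genes (0.256%). Cyp2c69, Cyp2c40, Tcf24, Jun and Fgf21, which rose in LFKO livers, had log2FC of -0.51, -0.68, 0.35, -0.49 and 0.05 in LFPKO against LPKO, and terms of -4.81 to -1.85 (limma adjusted p at most 0.0338). In RD LFPKO and RD LPKO livers Cyp2c69 averaged 0.317 and 0.948 TPM, Tcf24 0.990 and 0.531 TPM, and Fgf21 0.203 and 0.151 TPM. At such levels log2(TPM + 1) can show little change. Cyp2c40 averaged 2.21 and 4.35 TPM there. Jun averaged 17.7 and 25.5 TPM there, beside 21.1 TPM in RD LFKO livers. Mup21, Mup12, Nat8, Errfi1 and Nox4, which fell in LFKO livers, had terms of 1.0 to 3.45 (limma adjusted p at most 0.0298). Cyp2b9 had a log2FC of 0.35 in LFPKO against LPKO, but its term of -4.46 was not called (limma adjusted p = 0.0558). The same test between diets called 1 gene (0.00948%): Cyp2c69, with a log2FC of 0.21 on the high-fat diet and a term of -3.40 ± 0.51 (limma adjusted p = 0.0185). Cyp2c69 averaged only 0.524 TPM in HFD LFKO and 0.306 TPM in HFD WT livers, and the SE of its term is shared by all groups.

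**Figure D5:**
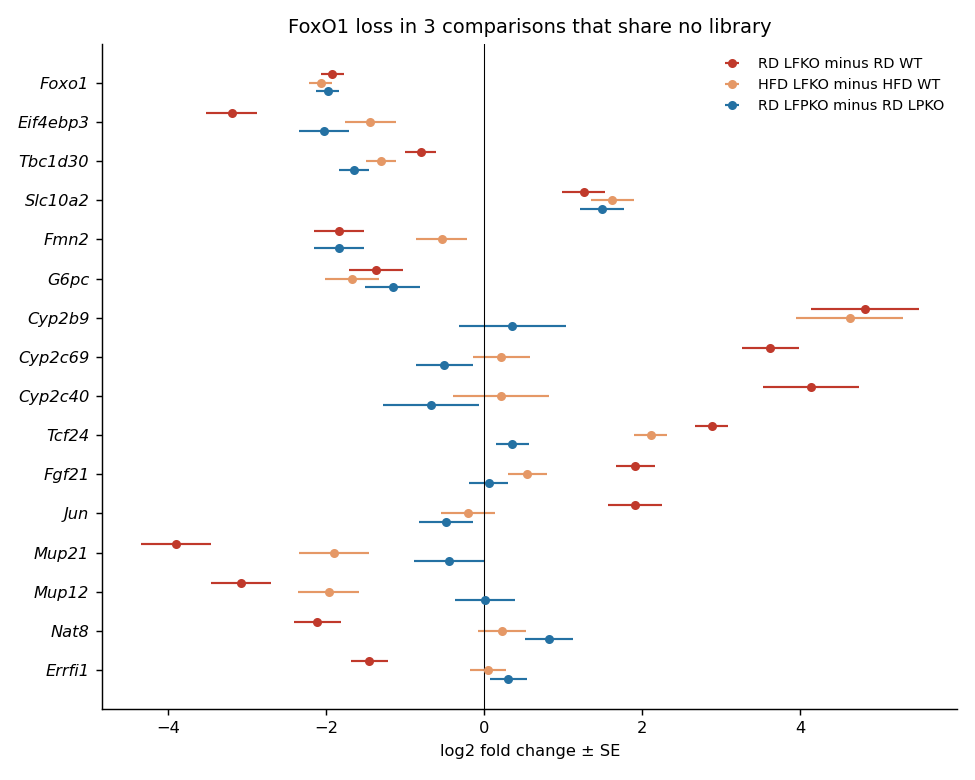
Log2 fold change ± SE of 16 genes for FoxO1 loss in RD LFKO against RD WT (red), HFD LFKO against HFD WT (orange) and RD LFPKO against RD LPKO livers (blue). Foxo1, Eif4ebp3, Tbc1d30 and Slc10a2 move the same way in all 3, whereas Cyp2c69 and Jun passed limma at an adjusted p under 0.05 in RD LFKO against RD WT and in neither other comparison.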

How the data were processed

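Per the labels' protocols, RNA came from snap-frozen liver by Trizol, and libraries were made with the TruSeq Stranded mRNA kit. The authors deposited 1 table of gene-level TPM for 24 libraries in 8 groups of 3. Per the submitters' processing notes kallisto and GRCm38 (mm10) were used; no version or annotation is named in those notes. TPM depend on all other genes of a library, keep no depth, and divide reads of similar genes by estimation. A row without a gene name was left out (0.00994% to 0.0248% of a library), which leaves 34945 genes.

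Groups were taken from sample titles. Genes with a mean of at least 1 TPM over the 24 libraries (10551) were fitted as log2(TPM + 1) with limma 3.58.1 in R 4.3.3 (limma-trend, 1 mean per group, 16 residual degrees of freedom), and p-values were adjusted by Benjamini-Hochberg over all of them at 0.05. A single-gene exact permutation test of 3 against 3 cannot go below 0.1 and was not used. On simulated data with 200 planted changes among 10551 genes, LFKO against WT on the regular diet recovered 82% of changes of 1 and 96% of changes of 2 (log2), with 10 false calls of 188. The simulated noise was normal and independent, with 1 spread per gene for all groups and no shift in composition. These rates therefore need not hold for the deposited data. No 2 libraries held identical values.

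Named genes were Foxo1, the 10 highest and 10 lowest called genes (groups not overlapping, at least 5 TPM in the higher group, no predicted name), any of the 20 highest and 20 lowest, members of gene lists, and the called terms between comparisons; others are said to be chosen after their values were seen. Tbc1d30, Fmn2 and the Gstm, Nduf and Cox families are such genes. The groups compared and the gene lists were chosen with earlier results of these data known. Alternatives were a pseudocount of 0.1, no filter or a filter at 5 TPM, median-of-ratios scaling, rescaling without Mup and mitochondrial transcripts, fits on the compared groups or the regular diet alone, robust moderation, a block for the replicate number, and each library left out in turn. Positions are from GENCODE M21 (GRCm38) and promoters from RefSeq (GRCm38.p6). Results for some genes are not reported here.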

Additional observations from a re-analysis of the deposited data

Results flagged for a closer look

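The change with FoxO1 loss differed by PPARα genotype on the regular diet for 27 of 10551 genes by limma's interaction term (LFPKO against LPKO minus LFKO against WT). Among genes that rose in LFKO livers, the term was -4.81 for Cyp2c40, -4.12 for Cyp2c69, -2.52 for Tcf24, -2.40 for Jun and -1.85 for Fgf21. Among genes that fell there, it was 1.0 for Nox4, 1.76 for Errfi1, 2.93 for Nat8, 3.09 for Mup12 and 3.45 for Mup21. Cyp2c69, Tcf24 and Fgf21 averaged under 1 TPM in both RD LFPKO and RD LPKO livers, where the scale can show little change. The term was -2.60 for H2ac18, a histone H2A gene, -2.01 for Sucnr1, the succinate receptor gene, and -1.95 for Aqp11, an aquaporin gene. In LFKO against WT Aqp11 rose (1.21, limma adjusted p = 0.0203), a call lost without 4 of the 6 libraries (up to 0.091). H2ac18 (0.81) and Sucnr1 (-0.005) were not called there (limma adjusted p = 0.263 and 0.997). In LFPKO against LPKO the log2FC were -0.74 for Aqp11, -1.79 for H2ac18 and -2.01 for Sucnr1. By diet, 1 gene was called (HFD LFKO against WT minus RD LFKO against WT): Cyp2c69, at -3.40. Groups of 3 libraries were not tested for single libraries far from the others.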

How the results depend on the processing

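The 176 calls on the regular diet became 97 with a filter at 5 TPM, 394 (262 higher, 132 lower) with median-of-ratios scaling, 297 (122 and 175) without Mup and mitochondrial transcripts, 431 (317 and 114) with the 2 groups alone, 662 (511 and 151) with regular-diet libraries alone, and 77 to 173 with 1 library left out. The high-fat diet's 1420 became 432 (scaling), 428 (no Mup or mitochondrial transcripts), 140 (groups alone) and 199 to 3501 (1 library out). The 13 of LFPKO against LPKO became 8 (pseudocount 0.1), 4 (filter at 5 TPM), 8 (groups alone) and 7 to 18 (1 library out). The 1 call by diet became 0 (pseudocount 0.1), 4 (no filter), 4 (filter at 5 TPM), 2 (scaling), 2 (no Mup or mitochondrial transcripts), 4 (groups alone) and 0 to 90 (1 library out). The 27 by PPARα genotype became 16 (pseudocount 0.1), 14 (filter at 5 TPM), 74 (groups alone), 74 (regular diet alone) and 8 to 27 (1 library out). The cause of these shifts was not tested. Values near 0 changed sign: Foxo4 (-0.067) without Mup and mitochondrial transcripts, Foxo3 (0.00275; range with 1 library out -0.0798 to 0.00275) without LFKO replicate 2, and Sucnr1 without LFKO replicate 2 or 3 or WT replicate 2 or 3 (-0.331 to 0.183). Same-numbered LFKO and WT libraries share only a number (correlation of deviations 0.0162 to 0.0809, with 1 of 3 numbers matching best); the replicate block gave 156 calls, 148 of them shared. Depth is unknown, so no counting error can be given.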

Other observations

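The Nduf and Cox families of the respiratory chain were chosen after their values were seen. Over all tested genes 1.67% were called and 56.2% had a positive log2FC. Of 47 tested Nduf genes, which encode complex I subunits and assembly factors, 47 had a positive log2FC in LFKO against WT livers, with a median of 0.30, and 4 were called (Ndufc1, Ndufs3, Ndufs4 and Ndufv2). The calls of Ndufc1, Ndufs3 and Ndufs4 were lost without any 1 of the 6 libraries, and that of Ndufv2 without LFKO replicate 1 or 2 or WT replicate 3. After rescaling without Mup and mitochondrial transcripts 43 of 47 were positive, with a median of 0.17. Of 22 Cox genes, of complex IV, 22 were positive and Cox7b was called, a call lost without any 1 library. Transcripts encoded by the mitochondrial genome had a median of -0.18, with 12 of 13 below 0.

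Summed pericentral zone markers were at 6332 to 8801 TPM in LFKO and 9212 to 9404 TPM in WT livers. Of the 12 members 7 had a positive log2FC (median 0.20), 1 was called higher (Slc1a4) and 0 lower; Cyp2e1, which makes up most of the sum, was not called (-0.36). Summed periportal markers were at 6029 to 6436 TPM in LFKO and 6006 to 7202 TPM in WT livers. Within 10 Mb of Foxo1, 3 of 38 tested genes were called: Foxo1 itself, Gm5537 and Ndufc1. That share, 7.89%, includes the deleted gene, whose call the knockout fixes, and the Ndufc1 call was lost without any 1 of the 6 libraries. Within 10 Mb of Ppara 5 of 188 were called (2.66%), beside 1.67% over all tested genes.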
